A study of Mus musculus with 14 samples.

Results

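The cells described here are 156 bone marrow endothelial cells from a cluster rich in Cd36 and Gpihbp1 RNA, apart from the marrow's other endothelium. They were taken from 2 single-cell libraries of sorted mouse bone marrow stromal cells, 1 labelled wild-type (WT) mouse and 1 labelled PyMT mouse. The study asked how a distant breast tumour changes marrow cells. PyMT is the polyoma middle T antigen, an oncogene used to raise mammary tumours in mice. The labels give no promoter, strain, age, sex or number of mice for either library, nor the gates of the sort. A member was any cell that the submitters' clustering placed in cluster 4, with at least 500 detected genes and under 10% mitochondrial transcripts. This left 95 cells of the WT library and 61 of the PyMT library, out of 5381 stromal cells that passed the same limits and 6071 deposited. Of the 18 WT and 15 PyMT cells of the cluster left out, 17 and 8 had too few genes and 2 and 9 too many mitochondrial transcripts. The least complex cells inside the limit had 501 and 549 genes, and the most complex outside it 487 and 485. With 1 library per genotype there was no test between genotypes. The intervals given are 95% intervals of counting error. A difference between the libraries cannot be told apart from a difference between individual mice or between preparations.

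Capillary endothelium lines the smallest vessels and is where blood exchanges nutrients with tissue. In heart, muscle and fat, capillary endothelial cells carry a fatty acid uptake programme: Gpihbp1 holds lipoprotein lipase on the luminal surface, the lipase frees fatty acids from lipoproteins, and Cd36 with the fatty acid binding proteins takes them in. Marrow is also drained by sinusoids, wide and leaky vessels whose endothelium carries scavenger receptors such as Stab2 and Mrc1. Endothelial cells and LepR+ mesenchymal cells both supply the factors that hold blood stem cells in the marrow, Kitl (stem cell factor) and Cxcl12.

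The 6 marker genes of these cells lie on several chromosomes of GRCm38. They are Cd36 (chr5:17781690-17888801, minus strand), Gpihbp1 (chr15:75596628-75599481, plus strand), Flt1 (chr5:147561604-147726011, minus strand), Podxl (chr6:31519488-31563981, minus strand), Timp4 (chr6:115241892-115252205, minus strand) and Pecam1 (chr11:106654217-106750628, minus strand). Cyp26b1, the gene with the largest ratio of PyMT to WT among the 12 named below once 3 deep cells are set aside, lies at chr6:84571414-84593908 on the minus strand. Upstream sequence is shown for 3 genes on which the results turn: Cd36, the most widespread marker, Timp4, the marker most reduced in the PyMT library, and Cyp26b1. Each is the stretch before the start in the RefSeq promoter table (GRCm38.p6), read 5′ to 3′ on the gene's own strand. Capitals mark a match on either strand to AGGTCA, the half-site read by the fatty acid sensing PPARs and by the retinoic acid receptors, or to the TATA box motif, searched as TATAAA.
Cd36: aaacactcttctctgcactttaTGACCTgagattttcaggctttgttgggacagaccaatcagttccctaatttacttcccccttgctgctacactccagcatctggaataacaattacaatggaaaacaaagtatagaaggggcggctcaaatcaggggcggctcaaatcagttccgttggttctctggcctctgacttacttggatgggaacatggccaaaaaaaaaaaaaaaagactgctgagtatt
Timp4: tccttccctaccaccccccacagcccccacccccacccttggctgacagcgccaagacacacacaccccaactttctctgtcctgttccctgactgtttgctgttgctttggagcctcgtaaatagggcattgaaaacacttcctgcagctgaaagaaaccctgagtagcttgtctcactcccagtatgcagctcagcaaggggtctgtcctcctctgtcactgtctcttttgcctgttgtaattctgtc
Cyp26b1: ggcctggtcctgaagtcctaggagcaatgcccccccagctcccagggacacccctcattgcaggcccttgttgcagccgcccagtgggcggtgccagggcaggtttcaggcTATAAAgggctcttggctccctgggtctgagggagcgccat
The Cd36 stretch is chr5:17835897-17836146, minus strand. It lies inside the gene as annotated by GENCODE, outside its exons, before one of several starts. Its match is the half-site on the opposite strand and begins 228 bases before that start. The Timp4 stretch is chr6:115252206-115252455, minus strand, and holds neither motif. The Cyp26b1 stretch is chr6:84593909-84594060, minus strand, cut to the 152 bases before the first annotated exon, and its TATA box match begins 41 bases before that exon. Among all 32851 tabulated promoters, 14.02% held the half-site and 12.4% the TATA box motif within 250 bases of the start on either strand. These are matches of letters only.

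The cells were shallow. Their median was 1116 UMIs (unique molecular identifiers, each 1 captured transcript) in WT and 1315 in PyMT, which is 26.7% and 29.4% of the median of their library. Together they gave 116668 and 100998 UMIs. The other endothelial group, cluster 3, had medians of 2750 and 3549.5 UMIs and held 55 and 120 cells. Mitochondrial transcripts were a median of 2.72% and 3.22% of UMIs in cluster 4, against 5.94% and 5.21% in cluster 3. No cell barcode of cluster 4 occurred in both libraries, and 2 occurred in both among all stromal cells. A doublet caller, Scrublet, marked 1 WT and 0 PyMT cells of the cluster, and 30 WT and 4 PyMT cells among all kept cells.

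Cluster 4 was 4.34% of WT stromal cells (95% Clopper-Pearson interval 3.52 to 5.28) and 1.91% of PyMT stromal cells (1.47 to 2.45). Of all endothelial cells, clusters 3 and 4 together, it was 63.3% in WT (55.1 to 71.0) and 33.7% in PyMT (26.9 to 41.1). The intervals of the libraries do not overlap in either measure. Shares of the other clusters differed between the libraries as well. From WT to PyMT, cluster 0 went from 44.6% to 70.3% and cluster 3 from 2.51% to 3.76%. Cluster 1 went from 20.1% to 11.5%, cluster 2 from 25.5% to 10.8% and cluster 5 from 2.88% to 1.72%. The shares depend on the sort, and its gates are unknown here.

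The 6 markers that give these cells their label are described first. Cd36, the fatty acid translocase, stood at 5417 CPM (UMIs scaled to a cluster total of 1000000) in WT and 5436 in PyMT. In cluster 3 it stood at 652 and 216 CPM, and in the pooled stromal clusters 0, 1, 2 and 5 at 3.02 and 3.87 CPM. It was detected in 94 of 95 WT and 58 of 61 PyMT cells. Podxl, a sialomucin of the luminal surface, stood at 1269 and 1030 CPM against 47.4 and 86.0 in cluster 3. Flt1, VEGF receptor 1, stood at 2691 and 3475 CPM against 492 and 944. Gpihbp1 stood at 1260 and 871 CPM against 255 and 174. Timp4, an inhibitor of matrix metalloproteinases, stood at 1320 and 416 CPM, with no UMI in WT cluster 3 and 2.21 CPM in PyMT cluster 3. Pecam1, the adhesion molecule CD31, stood at 1294 and 1059 CPM against 308 and 333. All 6 were highest in cluster 4 in both libraries, as the plot of markers by cluster shows. Among the 10 genes furthest above all other clusters were Podxl, Cd36 and Gpihbp1 in WT and Cd36 and Podxl in PyMT. The clusters were cut from these same cells, and the markers were chosen with earlier results of these data known. A contrast between clusters is therefore a description, carries no test and is no check of the label.

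**Figure D1:**
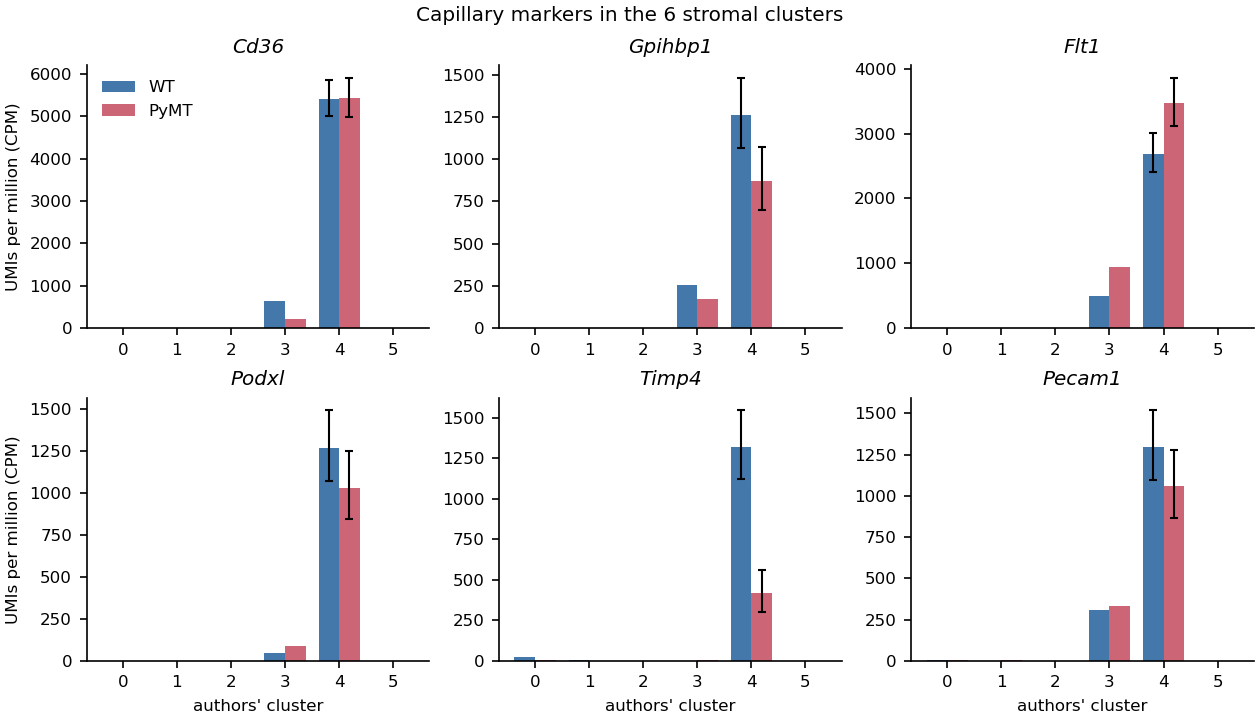
CPM of the 6 markers in each of the submitters' 6 clusters, WT in blue and PyMT in red; bars are sums over all cells of a cluster in a library, and the error bars on cluster 4 are exact Poisson 95% intervals. Every marker is highest in cluster 4, and Timp4 drops from 1320 in WT to 416 in PyMT there.

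Single cells carried the markers together. At least 4 of the 6 were detected in 80 of 95 WT cells (84.2%) and 47 of 61 PyMT cells (77.0%). The same held for 18.2% and 21.7% of the deeper cluster 3 cells, and for 0.102% and 0.0892% of LepR+ cluster 0 cells, whose medians were 3591 and 4421.5 UMIs. Both Cd36 and Gpihbp1 were detected in 67 WT and 34 PyMT cells, and no cell of the cluster lacked both. With each cell thinned to 600 UMIs, Cd36 was detected in 93.3% of WT and 90.2% of PyMT cells of cluster 4, against 28.6% and 10.3% in cluster 3 and 0.236% and 0.177% in cluster 0.

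Many genes set cluster 4 above cluster 3 in both libraries. In WT, 534 of 2708 genes with at least 20 UMIs (19.7%) stood at least 2-fold above cluster 3 and 437 (16.1%) at least 2-fold below. In PyMT it was 606 of 4900 (12.4%) above and 939 (19.2%) below. Cav1, the coat protein of caveolae, stood at 2949 and 2555 CPM against 17.8 and 19.9 in cluster 3. Clic5, a chloride intracellular channel protein, stood at 934 and 822 CPM against 5.93 and 2.21. Jam2, a junctional adhesion molecule, stood at 960 and 812 CPM against 11.9 and 4.41. The log2 ratios to cluster 3 were 7.37 and 7.01 for Cav1, 7.30 and 8.54 for Clic5, and 6.34 and 7.52 for Jam2. They rest on few UMIs in cluster 3: 3 and 9 of Cav1, 1 and 1 of Clic5, and 2 and 2 of Jam2. The lower ends of their intervals were 5.81 and 6.06, 4.79 and 6.02, and 4.45 and 5.62.

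Lipid handling genes filled out the profile. The list also held other capillary genes, such as Timp4 and Aqp1. Of its 18 genes with enough UMIs in WT, 13 stood at least 2-fold above cluster 3 and 4 below. In PyMT 12 of 18 stood above and 3 below. Mgll, the monoacylglycerol lipase, stood at 1080 and 1000 CPM against 11.9 and 13.2 in cluster 3. Fabp5, a fatty acid binding protein, stood at 497 and 356 CPM against 5.93 and 13.2. Aqp7, a glycerol channel, stood at 514 and 337 CPM with no UMI in cluster 3 of either library. Tcf15, which with Meox2 drives fatty acid transport in heart and muscle capillaries, stood at 617 and 624 CPM, with no UMI in WT and 2.21 CPM in PyMT cluster 3. C1qtnf9, a secreted relative of adiponectin, stood at 497 and 317 CPM and was at 0 in cluster 3 of both libraries. Against the stromal clusters, C1qtnf9 was 10.69 and 10.63 log2 units higher, on 3 and 3 UMIs there, and Podxl 11.62 and 10.74. Of the caveolae list, 7 of 10 genes in WT and 8 of 11 in PyMT stood at least 2-fold above cluster 3. Of the basement membrane list, 8 of 11 and 8 of 13 did.

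Most of the compared arterial genes were on this side too. The arterial list held 23 genes, of which 11 had enough UMIs in each library. Of these, 8 in WT and 8 in PyMT stood at least 2-fold above cluster 3, and 1 and 0 at least 2-fold below. Gja4, an arterial connexin, was detected in only 1 of 95 WT and 6 of 61 PyMT cells. Fbln2, a matrix fibulin, stood at 634 and 594 CPM against 29.6 and 0 in cluster 3. Ly6a, known as Sca-1, stood at 1971 and 1802 CPM against 172 and 188.

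Sinusoidal genes were on the other side. Of 17 listed genes with enough UMIs in each library, 16 stood at least 2-fold below cluster 3 and 0 above. Stab2 and Mrc1, scavenger receptors of sinusoids, had no UMI in cluster 4 of either library, against 1073 and 1011 CPM for Stab2 and 1381 and 1436 CPM for Mrc1 in cluster 3. Fcgr2b, an inhibitory Fc receptor, had 0 UMIs in WT and 19.8 CPM in PyMT, against 1002 and 1562 CPM. Tfpi, the tissue factor pathway inhibitor, stood at 25.7 and 69.3 CPM against 3918 and 4285. Plvap, the diaphragm protein of fenestrated and sinusoidal vessels, stood at 17.1 and 198 CPM against 960 and 1022.

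Markers of blood, erythroid and Schwann cells were near 0. The 21 hematopoietic markers summed to 34.3 CPM in WT and 9.90 in PyMT, with 18 and 20 of them at 0, Ptprc and Csf1r among those at 0 in both. The 10 erythroid markers summed to 17.1 and 9.90 CPM, with 8 and 9 at 0. The 8 Schwann cell markers summed to 0 and 19.8 CPM, with 8 and 6 at 0. The 16 LepR+ mesenchymal markers summed to 9274 and 10664 CPM, with 2 and 1 at 0, and Cxcl12, Kitl, Lpl and Ebf1 held most of that sum. In cluster 3 the same list summed to 2187 and 3166 CPM and in cluster 0 to 38923 and 32891. The 16 fibroblast markers summed to 4114 and 3822 CPM, above cluster 3 (1156 and 598) and cluster 0 (2192 and 2610), with Ly6c1 alone at 3300 and 2703 and the matrix gene Dcn at 120 and 89.1. The 9 adipocyte markers summed to 12566 and 9248 CPM, of which Fabp4 made up 12480 and 9099, and Adipoq stood at 42.9 and 69.3. The part of such RNA in the results was not tested. The 12 genes of bone-forming cells summed to 549 and 1030 CPM, with 5 and 4 at 0.

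Kitl and Cxcl12 RNA was found in cluster 4 as well, and how much of it was carried over from other cells was not tested. Kitl stood at 1826 CPM in WT and 1604 in PyMT, against 35.6 and 205 in cluster 3 and 1917 and 2291 in LepR+ cluster 0. It was detected in 76 of 95 and 49 of 61 cells. Cxcl12, the chemokine that retains stem cells, stood at 4311 and 5248 CPM, against 1091 and 1664 in cluster 3 and 20937 and 18614 in cluster 0. Lepr, which LepR+ cells share with Kitl, stood at 129 and 257 CPM in cluster 4. There were 14.2 Kitl UMIs per Lepr UMI in WT and 6.23 in PyMT, against 0.945 and 0.943 in cluster 0 and 0.286 and 0.769 in cluster 3. For Cxcl12 it was 33.5 and 20.4, against 10.3 and 7.66 in cluster 0 and 8.76 and 6.23 in cluster 3. The 3 deep cells described next held 6 of 15 WT and 18 of 26 PyMT Lepr UMIs. Without them the Kitl per Lepr ratios in cluster 4 were 23.2 and 15.8. After thinning to 600 UMIs, Kitl was detected in 62.0% and 56.9% of cluster 4 cells, against 3.15% and 5.81% in cluster 3. Between the libraries the log2 ratio of PyMT to WT was -0.19 (-0.49 to 0.11) for Kitl and 0.28 (0.10 to 0.46) for Cxcl12. Without the deep cells it was -0.37 (-0.70 to -0.04) for Kitl and 0.17 (-0.03 to 0.36) for Cxcl12.

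Before the genotypes are compared, 3 cells need naming. Of the 61 PyMT cells, 1 had 6252 UMIs and 1 had 6823, and 1 of the 95 WT cells had 3792, each over 3 times the cluster's median in its library. The pair of PyMT cells held 12.9% of the PyMT UMIs and the WT cell 3.25% of the WT UMIs. Both PyMT cells carried capillary RNA, with 7 and 18 UMIs of Cd36 and 13 and 12 of Flt1. They also carried RNA abundant in LepR+ cells, with 8 and 10 UMIs of Lepr, 82 and 47 of Cxcl12 and 55 and 59 of Igfbp5. The cell of 6252 UMIs had 20 UMIs of Ibsp and 17 of Mmp13, genes of bone-forming cells, and the other had none. The doublet caller marked the WT cell and neither PyMT cell. It marked 1.37% of all kept WT cells but 0.125% of all kept PyMT cells, so an unmarked PyMT cell may still be a doublet. Values without them, an alternative added after the data were seen, are given for the named genes and where they move a result.

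In cluster 4, 2180 genes had at least 20 UMIs over the 2 libraries. Of these, 156 (7.16%) were at least 2-fold higher in PyMT and 120 (5.5%) at least 2-fold lower, and the median log2 ratio was 0.015. Counts of 2-fold members in the gene lists below are to be read beside these shares. Without the 3 deep cells, 106 of 1999 genes were higher and 98 lower, of which 91 and 77 were among the first set. Named here are the 12 genes in each direction whose counting interval stood furthest from no difference.

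**Figure D2:**
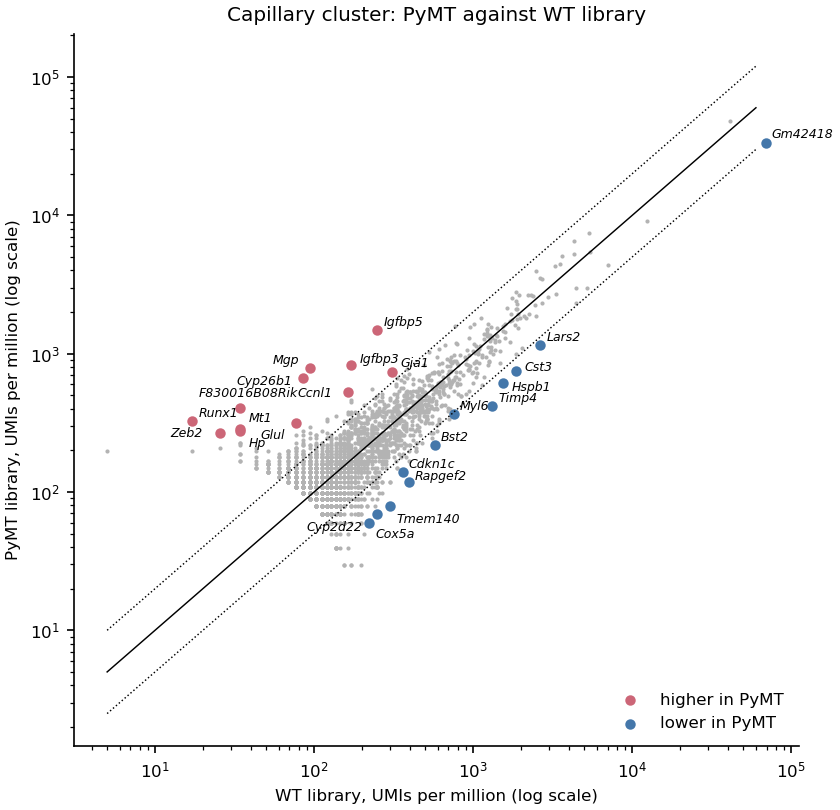
CPM in the WT library against the PyMT library for the 2180 genes compared in cluster 4, both axes on a log scale, with equality as a solid line, 2-fold either way as dotted lines, and values under 5 drawn at 5. The 12 named genes higher in PyMT are red and the 12 lower are blue; Timp4 lies at 1320 and 416, Cyp26b1 at 85.7 and 663.

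Cyp26b1, the enzyme that breaks down retinoic acid, had 10 UMIs in WT (85.7 CPM) and 67 in PyMT (663 CPM). It was detected in 6 of 95 WT and 27 of 61 PyMT cells, and no cell held more than 11 of its UMIs. The log2 ratio was 2.95 (1.98 to 4.08), and 3.04 (2.07 to 4.17) without the deep cells. It was at 0 in cluster 3 of both libraries and at 0.810 and 0.860 CPM in cluster 0. After thinning to 600 UMIs it was detected in 4.09% of WT and 26.7% of PyMT cells, against 0.0641% and 0.0481% in cluster 0. It was also higher in PyMT in cluster 2, with 74 and 129 UMIs and a ratio of 1.47 (1.04 to 1.90), and in cluster 5, with 7 and 26 UMIs and a ratio of 2.11 (0.87 to 3.56). In cluster 1 the ratio was 0.03 (-0.54 to 0.59).

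Timp4 went the other way. It had 154 UMIs in WT (1320 CPM) and 42 in PyMT (416 CPM), a log2 ratio of -1.67 (-2.19 to -1.17), and -1.50 (-2.02 to -0.99) without the deep cells. It was detected in 60 of 95 WT and 19 of 61 PyMT cells, or 46.8% and 20.8% after thinning to 600 UMIs, against 1.37% and 0.305% in cluster 0. It was also lower in PyMT in cluster 0, at 24.8 and 5.44 CPM, a ratio of -2.19 (-2.69 to -1.70). The WT cells held up to 8 UMIs each with a median of 1, and the PyMT cells up to 5 with a median of 0. In PyMT, 9 cells held both Timp4 and Cyp26b1, 10 Timp4 alone, 18 Cyp26b1 alone and 24 neither. In WT it was 5, 55, 1 and 34. In detection, the 2 genes were thus neither seen in all PyMT cells nor exclusive of each other. At this depth a cell with no UMI of a gene may still express it.

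**Figure D3:**
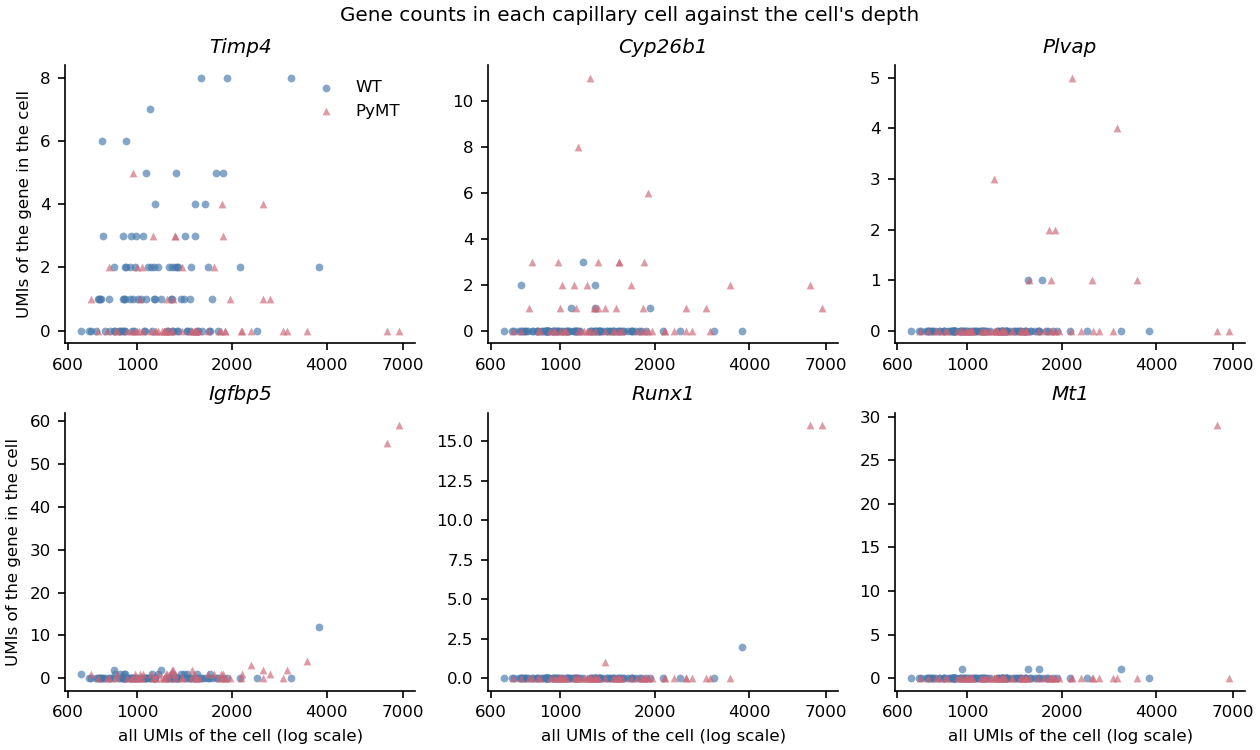
UMIs of 6 genes in each of the 95 WT cells (blue circles) and 61 PyMT cells (red triangles) of cluster 4, against the cell's total UMIs on a log scale. Timp4, Cyp26b1 and Plvap are spread over cells of ordinary depth, whereas Runx1 and Mt1 and most Igfbp5 lie in the pair of PyMT cells with 6252 and 6823 UMIs.

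Of the other genes higher in PyMT, 4 kept a similar ratio without the deep cells. Igfbp3, a secreted binder of insulin-like growth factors, had 20 and 84 UMIs, a log2 ratio of 2.28 (1.56 to 3.06), and 2.47 (1.74 to 3.27) without the deep cells. It was detected in 16 of 95 WT and 19 of 61 PyMT cells, and 2 PyMT cells with 21 and 20 UMIs held 41 of the 84. Igfbp3 was also higher in PyMT in cluster 3, by 2.90 (1.28 to 5.21), on 3 and 60 UMIs. Glul, glutamine synthetase, had 9 and 32 UMIs, a ratio of 2.04, and 2.14 without them. Ccnl1, a cyclin of RNA splicing, had 19 and 53 UMIs, a ratio of 1.69, and 1.75 without them. Gja1, connexin 43, had 36 and 75 UMIs, a ratio of 1.27, and 1.26 without them. Gja1 was also higher in PyMT in cluster 3, by 1.33, whereas in cluster 0 it was -0.30.

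Mgp, an inhibitor of calcification, and Igfbp5 were intermediate. Mgp had 11 and 79 UMIs, a log2 ratio of 3.05, and 2.31 (1.16 to 3.65) without the deep cells, which held 48 of the 79. Igfbp5 had 29 and 149 UMIs, a ratio of 2.57, and 1.40 (0.53 to 2.33) without them. Both are abundant in LepR+ cluster 0, where Mgp stood at 2712 and 6021 CPM and Igfbp5 at 10445 and 12595. Mgp was higher in PyMT in cluster 0 too, by 1.15, and in endothelial cluster 3 by 1.53 (1.10 to 1.99). Igfbp5 was higher in cluster 3 by 1.28 (0.96 to 1.62).

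The last 5 of the 12 were carried by the deep PyMT cells. They held 32 of 33 UMIs of Runx1, a transcription factor of blood and skeletal cells, 26 of 27 of Zeb2, 29 of 29 of Mt1, a metallothionein, 24 of 28 of Hp, haptoglobin, and 41 of 41 of F830016B08Rik. Without the deep cells the 59 other PyMT cells held 1 UMI of Runx1 and 1 of Zeb2, and none of Mt1 or F830016B08Rik. Runx1, Zeb2, Mt1 and Hp stood between 709 and 2482 CPM in cluster 0 of the 2 libraries. Hp kept 4 UMIs in PyMT and had none in WT.

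**Figure D4:**
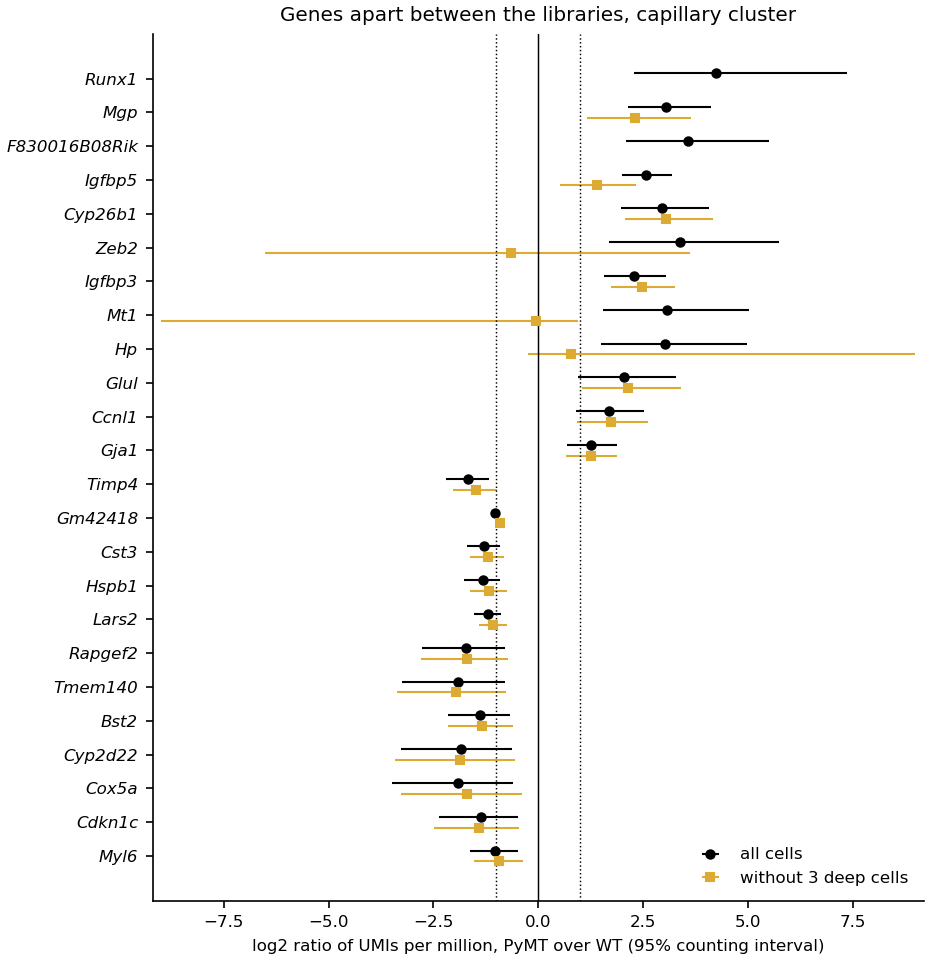
Log2 ratio of PyMT to WT for the 12 named genes in each direction, over all cells (black circles) and without the 3 deep cells (yellow squares), with 95% counting intervals, drawn to at most 9 either way. Where 1 library had no UMI it was set to 3; Runx1 and F830016B08Rik have no second value because both libraries had 3 UMIs or fewer.

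Besides Timp4, several of the 12 genes lower in PyMT were lower in other clusters too. Gm42418, a locus that collects ribosomal RNA reads, stood at 69016 and 33575 CPM, a log2 ratio of -1.04, and was lower in PyMT by more in cluster 3 (-1.72) and cluster 0 (-1.53). Lars2, a mitochondrial leucyl-tRNA synthetase, showed -1.21 against -1.59 and -1.66. Cst3, the protease inhibitor cystatin C, had 217 and 76 UMIs, a ratio of -1.31, against -0.64 and -0.92.

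Hspb1, a small heat shock protein that binds actin, had 180 UMIs in WT and 62 in PyMT, a ratio of -1.33 (-1.77 to -0.91), against -0.65 in cluster 3 and 0.92 in cluster 0. Bst2, the interferon-induced tetherin, had 67 and 22 UMIs, a ratio of -1.40 (-2.16 to -0.69), with 279 and 278 CPM in cluster 3. Cdkn1c, the cell cycle inhibitor p57, had 42 and 14 UMIs, a ratio of -1.38 (-2.36 to -0.48), with 172 and 86.0 CPM in cluster 3. The remaining 5 were Rapgef2, an activator of Rap1 (46 and 12 UMIs), Tmem140 (35 and 8), Cyp2d22 (29 and 7), Cox5a, a subunit of cytochrome oxidase (26 and 6), and Myl6, a myosin light chain (88 and 37). Without the deep cells 10 of the 12 stayed at least 2-fold lower, while Gm42418 came to -0.91 and Myl6 to -0.93.

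Of the 6 markers, Cd36 was level between the libraries and Timp4 alone was 2-fold apart. The intervals of Flt1, which was higher in PyMT, and of Gpihbp1, which was lower, left out 0 as well. The log2 ratio was 0.0050 (-0.16 to 0.17) for Cd36, 0.37 (0.15 to 0.59) for Flt1, -0.53 (-0.93 to -0.14) for Gpihbp1, -0.30 (-0.68 to 0.07) for Podxl and -0.29 (-0.66 to 0.08) for Pecam1. Cd36 held its level per cell as well, with a median of 5464 CPM in WT and 5348 in PyMT cells, and quartiles of 3171 to 6951 and 3003 to 9160.

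Of the 30 genes on the lipid handling list, which holds other capillary genes too, 16 were compared. Their median log2 ratio was -0.47, against 0.015 over all compared genes. Timp4, a protease inhibitor rather than a lipid handling gene, was the 1 gene at least 2-fold lower. None were 2-fold higher, against 5.5% lower and 7.16% higher among all genes. Only 4 lay above 0: Cd36, Lpl, Rbp7 and Tcf15. Aqp1, a water channel, stood at 4406 and 2980 CPM, a ratio of -0.56 (-0.77 to -0.36), and Fabp4, the main fatty acid binding protein here, at 12480 and 9099 CPM, a ratio of -0.46 (-0.58 to -0.34). In cluster 3 the list's median was -1.03 over 7 of these genes and in cluster 0 -0.85 over 13. The genes differ, so the medians are not ranked.

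Among 28 compared pan-endothelial genes the median was 0.018 and 14 lay above 0. Plvap was the 1 gene at least 2-fold higher and Robo4, a guidance receptor of endothelium, the 1 lower, with 35 and 12 UMIs and a ratio of -1.34 (-2.42 to -0.36). Kdr, VEGF receptor 2, stood at 1740 and 1941 CPM, and Cdh5, the junctional VE-cadherin, at 2477 and 1881 CPM with a ratio of -0.40 (-0.67 to -0.13). Of 19 VEGF and angiopoietin pathway genes, Robo4 and Ephb4, a venous ephrin receptor (29 and 9 UMIs, -1.48), were at least 2-fold lower and Vegfa (5 and 18 UMIs) higher. Of those 18 Vegfa UMIs, 10 lay in 1 cell. Junction genes had a median of -0.24 and caveolae genes -0.21, with Plvap the 1 caveolae gene 2-fold higher and no other gene of the 2 lists 2-fold apart.

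Arterial genes had a median of 0.35, with 12 of 17 above 0 and Mgp and Fbln5 at least 2-fold higher. Fbln5, a fibulin of elastic fibres, had 4 UMIs in WT and 23 in PyMT, and without the deep cells 1 and 20. The angiocrine list had a median of 0.39 with 13 of 16 above 0; Igfbp3, Igfbp5 and Vegfa were at least 2-fold higher and 0 were lower. In cluster 3 the medians of the arterial and angiocrine lists were 0.38 over 9 of these genes and 0.61 over 13. Of 12 basement membrane genes, Col15a1 (5 and 20 UMIs, ratio 2.21, 0.75 to 3.98) was 2-fold higher and Lamb2 (23 and 8 UMIs) lower, and the median was -0.01.

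Plvap had 2 UMIs in 2 WT cells and 20 UMIs in 9 PyMT cells, a log2 ratio of 3.53 (1.49 to 6.67), and none lay in the deep cells. All 9 PyMT cells with a Plvap UMI also held Igfbp3, against 9 of the 50 other PyMT cells of ordinary depth, and held 61 of the 84 Igfbp3 UMIs. Fbln5 was detected in 5 of the 9 and 4 of the 50. These 9 cells were picked for Plvap after its values were seen and are deeper (median 1898 against 1245 UMIs), so their profile is given as values only. On the CPM scale they held 718 of Fbln5, 3128 of Igfbp3 and 615 of Gja4, an arterial connexin, against 87.7, 307 and 14.6 in the 50 others. They held 5743 of Fabp4, 3743 of Cd36 and 256 of Cyp26b1, against 11254, 6592 and 862. Stab2 was at 0 in both sets, Car4, a capillary carbonic anhydrase, at 0 and 234, and Flt1 at 3025 and 3902. Timp4 stood at 256 in the 9 cells and 541 in the 50 others. In the 92 WT cells of ordinary depth with no Plvap UMI, Timp4 stood at 1378 and Cyp26b1 at 91.2.

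Interferon-induced genes had a median of -0.38, with 3 of 16 above 0. Isg15 (28 and 8 UMIs), Bst2, Xaf1 (16 and 4), Psmb8, an immunoproteasome subunit (20 and 6), and Ifit2 (15 and 6) were at least 2-fold lower, and Stat2 (6 and 16) was 2-fold higher. That is 31.25% lower and 6.25% higher, against 5.5% and 7.16% of all compared genes, and most rest on few UMIs. Iigp1, an interferon-induced GTPase, had 131 and 184 UMIs, a ratio of 0.70, but 86 of the PyMT UMIs lay in 1 cell. Rsad2, known as viperin, stood at 369 and 366 CPM. The median was -0.69 without the deep cells, and 0.088 with cells thinned to 1500 UMIs and -0.0087 with at least 50 UMIs asked of a gene. In cluster 3 it was 0.65 over 12 of these genes and in cluster 0 -0.12 over 15. Of 7 antigen presentation genes, Tapbp (39 and 15 UMIs) was 2-fold lower and none higher, with a median of -0.32.

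Nuclear genes of oxidative phosphorylation had a median of -0.58, with 3 of 30 above 0. At least 2-fold lower were Cox5a, Cox5b (23 and 6 UMIs), Cox4i1 (29 and 11), Atp5e (23 and 9), Ndufa13 (16 and 4) and Ndufc1 (17 and 6), and 0 were higher. Those lower were 20% of the compared members, against 5.5% of all compared genes, and each rests on few UMIs. The list was lower in PyMT in the other clusters as well, at -0.45 in cluster 3 and -0.42 in cluster 0. Mitochondrially encoded genes went the other way in cluster 4. Their median was 0.40 with 11 of 12 above 0, against -0.18 in cluster 3 and -0.26 in cluster 0. The membership rule cut on the share of these transcripts, which left out 2 WT and 9 PyMT cells of the cluster. With all deposited cells the median moved to 0.67, so its size depends on that rule. mt-Co3 stood at 4320 and 6564 CPM (0.60, 0.43 to 0.77) and mt-Atp6 at 5349 and 7485 CPM (0.48, 0.33 to 0.64). mt-Atp8, with 24 and 43 UMIs, was the 1 member 2-fold higher.

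Immediate early and stress genes had a median of 0.29 over 26 genes, with 19 above 0, against 0.71 in cluster 3 and 0.91 in cluster 0. Fos stood at 2494 and 3970 CPM (0.67, 0.45 to 0.89), although 113 of its 401 PyMT UMIs lay in 1 cell, and Egr1 at 1860 and 2772 CPM (0.58, 0.31 to 0.84). Hspb1 was the 1 gene 2-fold lower, and Fosl2 (7 and 18 UMIs) and Hspa1a the 2 higher, with 59 of the 78 PyMT UMIs of Hspa1a in 1 cell. The STAT3 and acute phase list had a median of 0.53 over 9 genes and 0.15 without the deep cells. Its member Stat3 had 12 and 26 UMIs, a ratio of 1.32 (0.29 to 2.44), in 12 and 21 cells. Such genes respond to cell dissociation, and their part in these values was not tested.

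Notch genes had a median of 0.27 over 10 genes, BMP and TGF-beta genes -0.03 over 11, and coagulation and shear genes 0.14 over 9, with no member of the 3 lists 2-fold apart. Klf2, a shear-induced transcription factor, stood at 2254 and 1941 CPM, and Klf4 at 1894 and 2089. Id1, a target of BMP signalling, stood at 1226 and 1347 CPM. In cluster 3, BMP and TGF-beta genes had a median of 0.75 over 10 genes. Adhesion and inflammation genes had a median of 0.43 over 9 genes. Il1r1, the interleukin 1 receptor (4 and 19 UMIs), Icam1 (10 and 22) and Cxcl9 (6 and 17) were at least 2-fold higher. They were 33.3% of the compared members, against 7.16% of all compared genes, and each rests on few UMIs. The 17 PyMT UMIs of Cxcl9 lay in 1 cell, as did 10 of those of Icam1, whereas Il1r1 was detected in 12 cells. Sinusoidal genes had a median of 0.21 over 7 genes. Adamts5, a matrix protease (3 and 21 UMIs, in 3 and 9 cells), and Clec1a, a C-type lectin (8 and 18 UMIs), were the 2 at least 2-fold higher, and 0 were lower. Hypoxia and glycolysis genes had a median of -0.14 over 11 genes, with Vegfa and Egln1 2-fold higher and P4ha1 lower. The deep PyMT cells held 8 of the 21 Adamts5 and 7 of the 19 Il1r1 UMIs, and without the deep cells the ratios were 3.06 (0.92 to 6.25) and 2.36 (0.47 to 4.83). With cells thinned to 1500 UMIs the median turned to -0.63 for sinusoidal genes, to -0.37 for coagulation and shear genes and to -0.044 for immediate early and stress genes. Without the deep cells the hypoxia median turned to 0.013 and that of BMP and TGF-beta genes to 0.12.

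**Figure D5:**
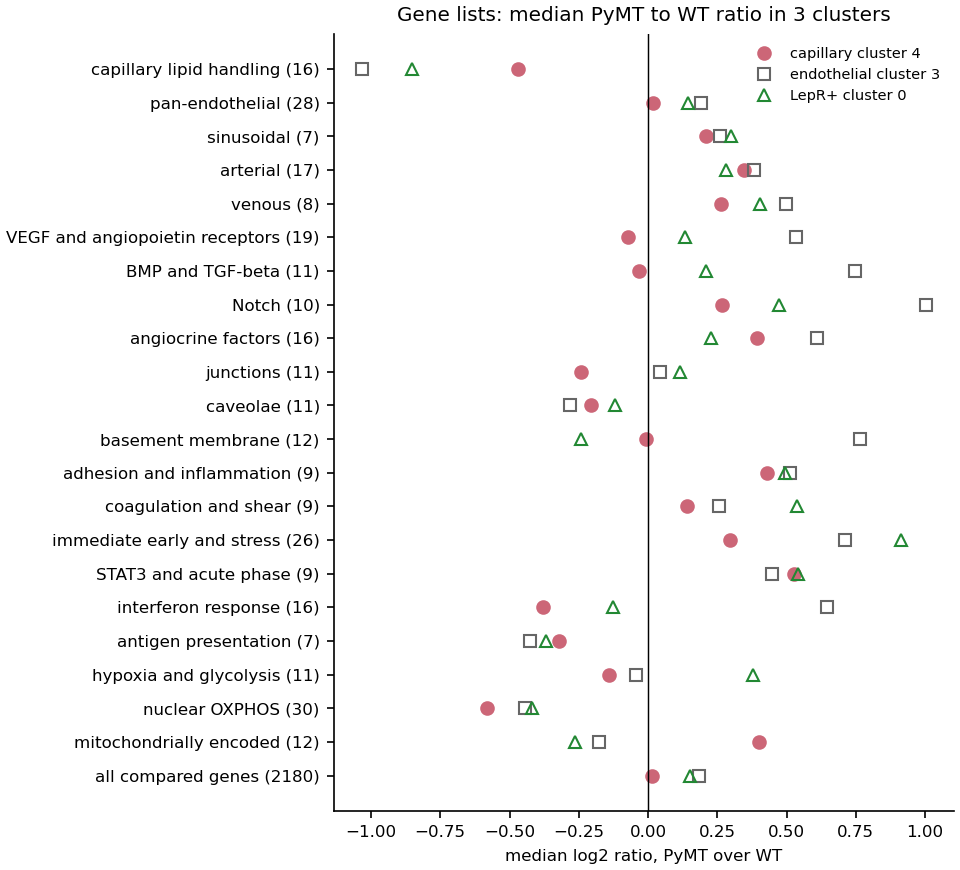
Median log2 ratio of PyMT to WT of gene lists in cluster 4 (red circles), endothelial cluster 3 (open squares) and LepR+ cluster 0 (open triangles), with the number of genes compared in cluster 4 in brackets. Medians in clusters 3 and 0 are over those of the genes with at least 20 UMIs there, which can be fewer. In cluster 4 the median is -0.58 for nuclear OXPHOS, -0.47 for lipid handling and 0.53 for STAT3 and acute phase, the last 0.15 without the deep cells.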

How the data were processed

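Sorted mouse bone marrow stromal cells were profiled with droplet 3′ chemistry, 1 WT and 1 PyMT library, per the labels' protocols. Per the submitters' processing notes, Cell Ranger 6.0.0 was used with the mouse build mm10. The deposited tables hold raw UMI counts for 32285 genes per cell. The deposited cell metadata give the mitochondrial share as a fraction and a cluster number at resolution 0.1, which per the file headers comes from integrated data. The other samples of the series were not used here.

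Counts were summed per cluster and library (Python 3.11.15, scipy 1.17.1), scaled to CPM, and given exact Poisson, Clopper-Pearson or conditional binomial intervals of 95%, which cover counting error only. Genes with at least 20 UMIs over both libraries were compared, and 2-fold was the limit for calling a gene apart. A library with no UMI was set to 3 counts. Named genes needed at least 30 UMIs. Scrublet (scanpy 1.11.5) marked 0.632% of all kept cells, and these cells were left in. The interval code was checked on simulated data. Gene positions are from GENCODE (GRCm38, the same assembly as mm10). The members, gene lists and markers were chosen with earlier results of these data known. Named were the 12 genes each way whose interval lay furthest from 0, the leading cluster contrasts, and in each list the most abundant and the 2-fold members. The alternative without deep cells was chosen after seeing the data. One gene that the rule names is not reported here.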

Additional observations from a re-analysis of the deposited data

Results flagged for a closer look

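For 3 genes the PyMT library was at least 2-fold above WT in 1 endothelial cluster and at least 2-fold below it in the other. The difference between the clusters was not tested, since each genotype has 1 library. Isg15, an interferon-induced ubiquitin-like protein, had a log2 ratio of -1.60 (-2.94 to -0.43) in cluster 4 and 1.38 (-0.36 to 3.77) in cluster 3, where it rests on 3 WT and 21 PyMT UMIs. Xaf1, another interferon-induced gene, had -1.79 (-3.83 to -0.16) in cluster 4 and 1.45 (-0.29 to 3.83) in cluster 3, on 3 and 22 UMIs. Cxcl9, a chemokine induced by interferon gamma, had 1.71 (0.30 to 3.34) in cluster 4 and -2.08 (-2.94 to -1.25) in cluster 3, and all 17 of its PyMT UMIs in cluster 4 lay in 1 cell.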

How the results depend on the processing

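The share of cells in cluster 4 stayed within its interval under each alternative run, at 4.51% and 2.13% with all deposited cells. The main counts of 156 and 120 genes came to 37 and 28 with cells thinned to 1500 UMIs, which left 19 WT and 25 PyMT cells, to 20 and 22 with at least 50 UMIs, and to 1422 and 993 with at least 1 UMI in each library. Of the list medians under all alternatives, 229 stayed close and 19 moved, among them those of the 6 markers (-0.14 thinned), of interferon genes (0.088 thinned, -0.0087 with at least 50 UMIs, -0.69 without the deep cells) and of lipid handling (-0.28 as a mean of per-cell CPM, -0.30 with at least 1 UMI, -0.34 without the deep cells). Medians turned in direction when thinned for sinusoidal (-0.63), coagulation and shear (-0.37), immediate early and stress (-0.044) and interferon genes (0.088). LepR+ mesenchymal (-0.0044), cell cycle arrest (-0.37), BMP and TGF-beta (0.10) and basement membrane genes (0.083) turned when thinned as well. With at least 50 UMIs they turned for Notch (-0.079), coagulation and shear (-0.089) and hypoxia and glycolysis genes (0.17). Cell cycle arrest (-0.13) and BMP and TGF-beta genes (0.023) turned there too. Other alternatives also turned medians near 0. No oxidative phosphorylation gene reached the limit when thinned. Directions reversed for Myl6 when thinned (0.024) and, without the deep cells, for Zeb2 (-0.64, on 2 and 1 UMIs) and Mt1 (-0.055, PyMT at the floor of 3). Of 60 cluster 4 to cluster 3 ratios, 3 left their interval and 0 reversed. The causes were not tested. No paired analysis was possible because each genotype has 1 library.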
